A study of Mus musculus with 6 samples.

Results

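Heavy chain clonotypes built on IGHV1-72 and IGHV1-53 were examined in naïve follicular (FO) B cells from the spleens of 2 mice that had not been immunised. Here a clonotype means 1 nucleotide sequence of CDR3, the antibody loop encoded across the joins of V, D and J segments. A clonotype counted as a member when the first V gene listed for it, with the allele removed, was IGHV1-72 or IGHV1-53. This gave 337 of the 14575 clonotypes in both heavy chain (IgH) libraries, of which 126 had IGHV1-72 and 211 had IGHV1-53. The library of the iB-μMT mouse (iB library) contributed 178 members of 7794 clonotypes, and that of the B6 mouse (B6 library) contributed 159 of 6781.

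The iB-μMT mouse was a B cell-deficient μMT recipient, irradiated and transplanted with hematopoietic progenitors (iHPCs) that had been induced from embryonic stem cells carrying doxycycline-inducible Runx1, Hoxa9 and Lhx2 (iR9X2) on a C57BL/6 background. It drank doxycycline water, and its libraries are labelled week 4 after transplantation. The B6 mouse was an untreated C57BL/6 control, so irradiation, transplantation and doxycycline differed between the mice together with the origin of the B cells. The sort of both mice included the markers IgD++, IgM+, CD23++ and CD21+, and the stem cell line is a single engineered line.

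Each antibody heavy chain gene is assembled in a developing B cell by joining 1 V, 1 D and 1 J segment, and terminal deoxynucleotidyl transferase adds nucleotides that no segment encodes at the joins. IGHV1-72, known as V186.2, is the V gene that dominates the early response of C57BL/6 mice to the hapten NP, where it is typically joined to IGHD1-1 (DFL16.1) and IGHJ2 and paired with a lambda1 light chain. The amino acids YYGS in CDR3 are read from IGHD1-1 and recur in these anti-NP antibodies. IGHV1-53 is a related gene of the same large IGHV1 (J558) family that is also found in NP responses. Heavy and light chains were sequenced in separate libraries, so no pairing could be read.

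Both genes lie on mouse chromosome 12 in RefSeq's annotation of GRCm38.p6, the assembly that the labels call mm10. Ighv1-72 spans 115757984 to 115758277 (294 bases) and Ighv1-53 spans 115158445 to 115158835 (391 bases), each annotated as a V segment. Another V segment, Ighv1-62-3, enters the results because it was listed beside IGHV1-72 for nearly every clonotype. It spans 115460999 to 115461431 (433 bases) and lies between the members.

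The CDR3 nucleotide sequences that the results turn on are shown 5′ to 3′, as deposited, with the bases assigned to the D gene in capitals. All but the last sequence open with the untrimmed end of the V gene, which was tgtgcaaga in all 104 IGHV1-72 and all 168 IGHV1-53 clonotypes whose V end was untrimmed and matched without a change. CDR3 therefore does not separate these genes, and the call rests on the V bases upstream of it. The first 3 sequences are the IGHV1-72 clonotypes that held all the segments typical of the NP response (IGHD1-1, IGHJ2 and YYGS). In those of the iB library, the last bases that encode YYGS lie outside the capitals. The next 4 had the most reads for each gene and mouse. The rest were CDR3 sequences found in both mice, most of them with another V gene in the other mouse.
IGHV1-72 in the iB library, 448 reads, IGHD1-1 and IGHJ2: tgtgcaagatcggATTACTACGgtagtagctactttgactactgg
IGHV1-72 in the iB library, 131 reads, IGHD1-1 and IGHJ2: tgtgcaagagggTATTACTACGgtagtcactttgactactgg
IGHV1-72 in the B6 library, 8 reads, IGHD1-1 and IGHJ2: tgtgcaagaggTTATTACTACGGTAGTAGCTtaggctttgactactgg
IGHV1-72 in the iB library, 460 reads, IGHD2-8 and IGHJ2: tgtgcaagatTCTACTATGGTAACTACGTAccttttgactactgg
IGHV1-72 in the B6 library, 508 reads, IGHD1-1 and IGHJ4: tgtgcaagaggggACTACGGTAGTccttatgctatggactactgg
IGHV1-53 in the iB library, 772 reads, IGHD1-1 and IGHJ4: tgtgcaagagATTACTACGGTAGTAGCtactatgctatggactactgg
IGHV1-53 in the B6 library, 944 reads, no D gene assigned, IGHJ4: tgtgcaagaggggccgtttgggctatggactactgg
IGHV1-72 in the iB library, 331 reads, and IGHV1-18 in the B6 library, 392 reads, both IGHJ4: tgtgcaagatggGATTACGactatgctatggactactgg
IGHV1-72 in the iB library, 157 reads, and IGHV1-18 in the B6 library, 370 reads, both IGHJ1: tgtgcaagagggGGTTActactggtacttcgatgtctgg
IGHV1-72 in the iB library, 135 reads, and IGHV1-59 in the B6 library, 727 reads, both IGHJ1: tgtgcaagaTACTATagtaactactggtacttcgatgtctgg
IGHV5-4 in the iB library, 53 reads, and IGHV1-53 in the B6 library, 613 reads, both IGHJ3: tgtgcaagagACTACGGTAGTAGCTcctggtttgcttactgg
IGHV9-3 in the iB library, 224 reads, and IGHV1-53 in the B6 library, 470 reads, both IGHJ4: tgtgcaagagatgctatggactactgg
IGHV1-72 in the iB library, 1 read, and IGHV1-62-3 in the B6 library, 322 reads, both IGHJ3: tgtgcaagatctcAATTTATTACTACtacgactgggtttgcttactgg
IGHV1-53 in the iB library, 86 reads, and IGHV1-72 in the B6 library, 138 reads, both IGHJ2: tgtgcaagagactactttgactactgg
IGHV1-53 in both mice, 1 read and 2 reads, IGHJ3: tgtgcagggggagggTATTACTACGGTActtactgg

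Each group was 1 library from 1 mouse, so the values below compare libraries and no test between conditions could be made. The iB library held 909806 reads and the B6 library held 1383617. A floor of 3 reads therefore corresponds to 0.00033% and 0.000217% of reads. Intervals are 95% intervals with the clonotype as the unit (exact Clopper-Pearson for shares), and they cover counting error only, since reads were amplified by PCR with no identifier per molecule. Almost every clonotype with an assigned constant gene carried IGHM in both libraries (7644 of 7650 and 6684 of 6688). The surface markers of the gate were not measured here.

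As deposited, IGHV1-72 took a larger share of the heavy chain repertoire in the iB library, and IGHV1-53 took a smaller one. IGHV1-72 was the first V gene of 94 clonotypes in the iB library, 1.21% of its IgH clonotypes (0.976 to 1.47). In the B6 library it was the first V gene of 32 clonotypes, or 0.472% (0.323 to 0.666). The ratio of the shares was 2.56 (1.71 to 3.81). IGHV1-53 had 84 clonotypes in the iB library, 1.08% (0.861 to 1.33), against 127 or 1.87% (1.56 to 2.22) in the B6 library. Its ratio was 0.575 (0.438 to 0.757), so the members differed between the libraries in opposite directions. Ratio intervals away from 1 were not particular to the members, and their number over all V genes was not counted. Those of IGHV5-4 (3.73, 3.25 to 4.28) and IGHV1-61 (0.131, 0.0796 to 0.214), for example, also excluded 1. Of 77 IGHV genes compared, 30 (39%) had a ratio of at least 2 or at most 0.5.

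The direction differed when IGHV1-72 was counted together with IGHV1-62-3. When the clonotypes of both genes were counted together, the iB library had 163 (2.09%, 1.79 to 2.43) and the B6 library had 233 (3.44%, 3.02 to 3.90). The ratio then turned to 0.609 (0.50 to 0.742). IGHV1-62-3 alone had 69 clonotypes in the iB library (0.885%, 0.689 to 1.12) and 201 in the B6 library (2.96%, 2.57 to 3.40), a ratio of 0.299 (0.228 to 0.392). Of the clonotypes of either gene, 57.7% were given to IGHV1-72 in the iB library and 13.7% in the B6 library. IGHV1-62-3 thus made up most of the pair in the B6 library, and the joint ratio is not an estimate for IGHV1-72 alone.

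Against all V genes, the IGHV1-72 ratio was one among many past 2-fold. Of 77 IGHV genes with at least 20 clonotypes in both libraries together, 30 (39%) had a ratio of at least 2 or at most 0.5. A ratio of at least 2 was seen for 13 genes (16.9%), and IGHV1-72 as deposited was 1 of these with rank 11 of the 77. Counted with IGHV1-62-3 it was not, with rank 51 of 76 genes, of which 12 had a ratio of at least 2. With a lead of at least 28 in alignment score over the second V gene, a setting described below, its rank was 38 of 76. A ratio of at most 0.5 was seen for 17 genes (22.1%), and IGHV1-53, with rank 53, was not among them. IGHV1-62-3, with rank 73, was.

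Within its own family IGHV1-72 had the highest ratio as deposited, but not when counted with IGHV1-62-3. The 40 IGHV1 genes compared had a median ratio of 0.532, and 5 of them were above 1. IGHV1-72 ranked 1 of the 40 and was the 1 gene of the family at 2 or more. Counted with IGHV1-62-3 it ranked 14 of 39, and with a lead of at least 28 it ranked 6 of 40, and in both settings 0 IGHV1 genes were at 2 or more. The 38 IGHV1 genes other than the members had ratios from 0.131 to 1.37 with a median of 0.520, and 4 of them were above 1. IGHV1-53, ranked 16 in the family, was close to this median. The 37 genes of other families had a median ratio of 1.41.

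By number of clonotypes, IGHV1-72 ranked 22 among V genes in the iB library and 53 in the B6 library. IGHV1-53 ranked 29 and 18, and IGHV1-62-3 ranked 38 and 7. The genes whose shares in the 2 libraries lay nearest to those of IGHV1-72 as deposited belonged to other families. They were IGHV2-9-1 (75 clonotypes in the iB library and 30 in the B6 library), IGHV2-5 (82 and 25) and IGHV5-12 (129 and 28). Counted with IGHV1-62-3, the nearest were IGHV1-64 (170 and 258), IGHV1-26 (128 and 311) and IGHV5-17 (260 and 222). Those nearest to IGHV1-53 were all IGHV1 genes, namely IGHV1-52 (91 and 114), IGHV1-81 (97 and 122) and IGHV1-69 (88 and 156). Nearness was the distance between log2 shares over these 2 libraries, among 77 genes.

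**Figure D1:**
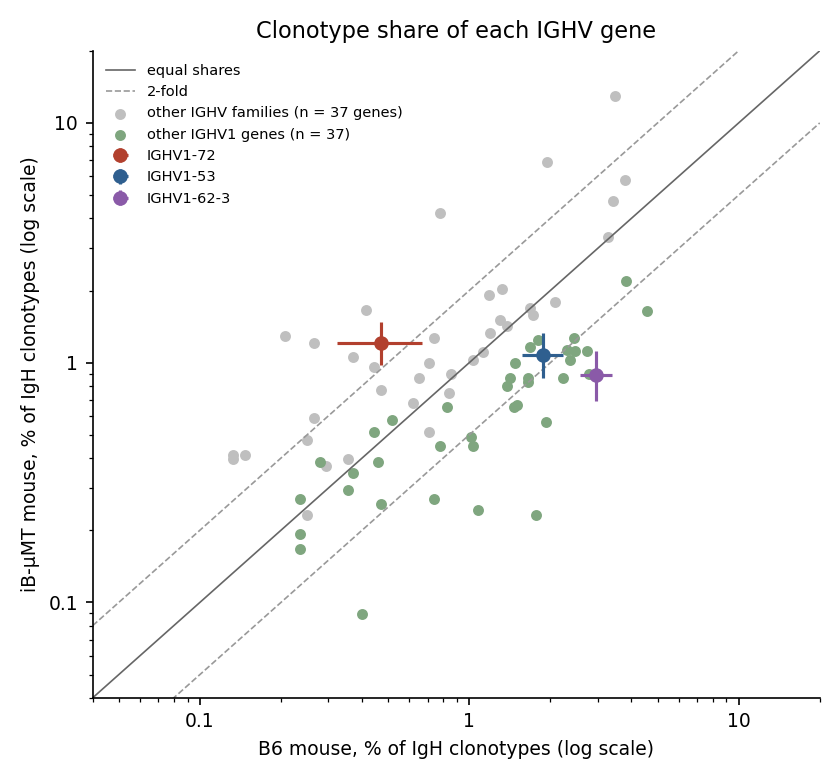
Share of IgH clonotypes of each of 77 IGHV genes in the B6 library (horizontal, %, log scale) and the iB library (vertical, %, log scale), with exact 95% intervals over clonotypes for the 3 named genes, a solid line for equal shares and dashed lines for 2-fold. IGHV1-72 (1.21% in the iB library and 0.472% in the B6 library) lies above the upper dashed line among genes of other families. In the same order of libraries, IGHV1-53 (1.08% and 1.87%) lies among the other IGHV1 genes and IGHV1-62-3 (0.885% and 2.96%) below the lower dashed line.

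The V call itself was examined next, because IGHV1-62-3 was the second V gene listed for 93 of 94 IGHV1-72 clonotypes in the iB library and for 31 of 32 in the B6 library. V hits are ranked by an alignment score, in which each matched base adds 5 and each mismatch costs 14. These costs were read from the CDR3 part of the V alignments, where 14542 of 14542 gapless alignments had exactly this score. Leads in the full V score were often not whole numbers, such as 6.6 and 8.5, so a lead is not a count of mismatches. How a score combines the reads of a clonotype was not examined. In all 159 and 225 clonotypes with the pair as first and second hit, both genes had the same CDR3 alignment. The lead of one gene over the other was therefore set wholly by the V bases outside CDR3.

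In the iB library the leads were small in both directions. The median lead of IGHV1-72 over the second gene was 14.9, close to the score of 1 mismatch, with a lower quartile of 6.9 and an upper quartile of 25. In the B6 library the median lead was 42, and 17 of 31 clonotypes led by exactly 42, the score of 3 mismatches (within 0.05). In the iB library 8 of 93 had that lead. Where IGHV1-62-3 came first its lead was likewise smaller in the iB library, with a median of 11.3 in the iB library and 49.9 in the B6 library.

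When each clonotype that listed both genes was placed by the score of IGHV1-72 minus that of IGHV1-62-3, the median was 3.55 among 160 clonotypes of the iB library and -44.8 among 225 of the B6 library. The difference was under 28, the score of 2 mismatches, in 130 of 160 (81.3%) and 53 of 225 (23.6%), respectively. IGHV1-62-3 was ahead by at least 28 in 9 iB-library clonotypes and in 153 of the B6 library. IGHV1-72 was ahead by at least 28 in 21 and 19. Most clonotypes of the iB library thus lay within a score of 28 of equality, over a range from -74.7 to 170.9. Most of those of the B6 library lay on the side of IGHV1-62-3.

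**Figure D2:**
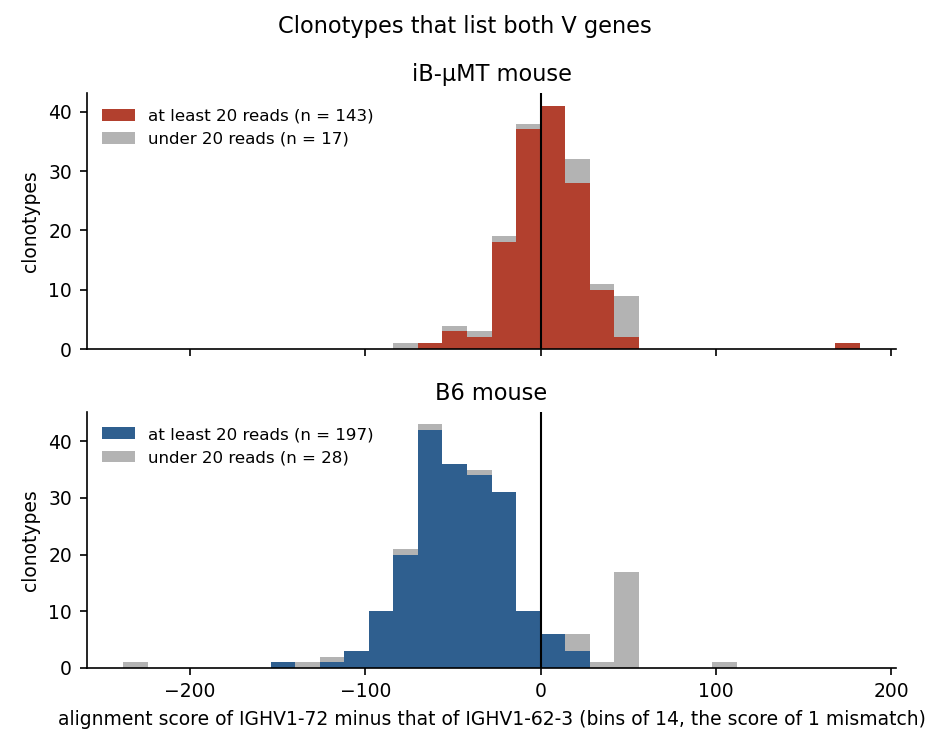
Number of clonotypes (vertical) by the alignment score of IGHV1-72 minus that of IGHV1-62-3 (horizontal, bins of 14, the score of 1 mismatch), for 160 clonotypes of the iB library (top) and 225 of the B6 library (bottom), with clonotypes under 20 reads in grey. The iB library centres near 0 (median 3.55) and the B6 library on IGHV1-62-3 (median -44.8), with a separate grey column of 17 clonotypes with few reads at a difference of 42 in favour of IGHV1-72.

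Reads per clonotype separated the IGHV1-72 clonotypes of the B6 library from every other set described here. Their median was 7.5 reads, with quartiles of 2.75 and 92.3 and a highest value of 508. The 94 clonotypes of the iB library had a median of 141 reads, with quartiles of 54.5 and 203 and a highest value of 460. Under 20 reads were found for 23 of 32 (71.9%, 53.3 to 86.3) in the B6 library and 13 of 94 (13.8%, 7.57 to 22.5) in the iB library. Over all IgH clonotypes these shares were 14.8% and 11.7%.

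The other gene of the pair and IGHV1-53 did not show this. IGHV1-53 had a median of 269 reads in the B6 library (quartiles 135 and 385) and 146 in the iB library (quartiles 78.3 and 213), with 10.2% and 10.7% under 20 reads. IGHV1-62-3 had medians of 279 and 153 reads, with 5.97% and 10.1% under 20. The whole libraries had medians of 184 and 96.

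**Figure D3:**
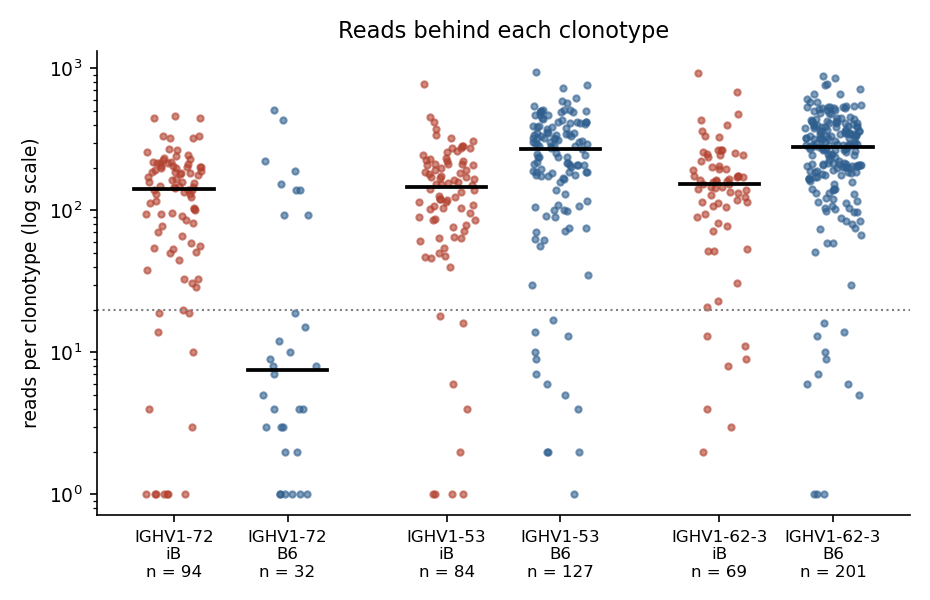
Reads of each clonotype (vertical, log scale) of IGHV1-72, IGHV1-53 and IGHV1-62-3 in the iB library (iB, red) and the B6 library (blue), with black bars at the medians and a dotted line at 20 reads. The IGHV1-72 clonotypes of the B6 library have a median of 7.5 reads, against medians of 141 to 279 in the other 5 sets.

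For IGHV1-72 the share of reads differed more than the share of clonotypes. Cells per clonotype, RNA per cell, PCR amplification and the V call itself cannot be told apart here. IGHV1-72 took 13390 reads or 1.47% (standard error 0.186 over clonotypes) in the iB library and 2096 reads or 0.151% (standard error 0.0566) in the B6 library. The ratio of read shares was 9.72 (4.49 to 21). With at least 5 reads required, IGHV1-72 kept 85 and 18 clonotypes and the ratio of clonotype shares was 4.06 (2.45 to 6.75). With at least 20 reads it kept 81 and 9, with a ratio of 7.56 (3.80 to 15). For the pair together the read shares were 2.81% and 4.32%, a ratio of 0.651 (0.508 to 0.833), again in the other direction.

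IGHV1-53 took 13297 reads or 1.46% (standard error 0.198) in the iB library and 34241 reads or 2.47% (standard error 0.259) in the B6 library. Its ratio of read shares, 0.591 (0.422 to 0.826), was close to its ratio of clonotype shares.

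The clonotypes of the B6 library with few reads were also those with the large lead. Among its 22 IGHV1-72 clonotypes under 20 reads that listed IGHV1-62-3, 19 led by at least 28 and the median lead was 42. Among the 9 with at least 20 reads, 0 led by at least 28 and the median lead was 8.7. In the iB library, 8 of 12 under 20 reads and 13 of 81 with at least 20 reads led by at least 28, with median leads of 42 and 14. If only clonotypes whose first V gene was alone or led by at least 28 were counted, 22 and 20 IGHV1-72 clonotypes remained. The ratio was then 0.935 (0.511 to 1.71), while the ratio of read shares was 21.7 (8.50 to 55.4).

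Base quality, stop codons and near-identical clonotypes were also counted over the IGHV1-72 clonotypes. The lowest base quality within CDR3 was under 30 in 5 of 32 clonotypes of the B6 library and in 1 of 94 of the iB library, against 3.63% and 1.81% of all IgH clonotypes. A stop codon was present in 3 of 32 (9.38%, 1.98 to 25) against 0 of 94 (up to 3.85%), whereas over all IgH clonotypes it was present in 2.21% and 0.680%. A clonotype 1 mismatch away with at least 10 times the reads existed for 9 of 32 in the B6 library, of which 6 were clonotypes of IGHV1-62-3 and 3 of IGHV1-72. In the iB library this held for 2 of 94, 1 of each gene. Over all IgH clonotypes it held for 6.27% in the B6 library and 1.59% in the iB library. For IGHV1-53 it held for 4 of 84 and 5 of 127. The part of read number, base quality and near-identical clonotypes in the calls of IGHV1-72 was not tested.

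IGHV1-53 was separated clearly from other V genes. It was the single V gene listed for 37 of 84 clonotypes in the iB library and 69 of 127 in the B6 library. IGHV1-55 was second for 41 and 50, IGHV1-72 for 6 and 7, and IGHV1-26 for 0 and 1. The median lead over the second gene was 224 and 235, and at least 28 or alone in 81 of 84 and 124 of 127. Scores were tied in 3 clonotypes of the iB library and 2 of the B6 library.

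The joining partners of IGHV1-72 were compared with the segments of the NP response in mind. IGHD1-1, the D gene of the canonical anti-NP heavy chain, was assigned in 19 of 94 IGHV1-72 clonotypes of the iB library (20.2%, 12.6 to 29.8) and in 9 of 32 of the B6 library (28.1%, 13.7 to 46.7). The difference of -7.91 percentage points had an interval from -26.5 to 7.66, so a difference of either sign was possible at this number of clonotypes. Over all IgH clonotypes the shares were 19.4% and 29.9%. IGHJ2 was joined in 29 of 94 (30.9%, 21.7 to 41.2) and 12 of 32 (37.5%, 21.1 to 56.3), a difference of -6.65 points (-25.8 to 11).

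Weighted by reads, these differences became -30.4 points for IGHD1-1 and 27.7 points for IGHJ2. Of the 2096 reads of IGHV1-72 in the B6 library, 508 belonged to the IGHD1-1 and IGHJ4 clonotype shown above. With at least 20 reads the IGHJ2 difference was 22.2 points (-11.5 to 36.4). With a lead of at least 28 it was -32.3 points (-55.2 to -2.92), and the IGHD1-1 difference was 21.4 points (-5.46 to 44.2). The sign of both differences was therefore not fixed by these data.

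The full canonical combination was rare. IGHV1-72, IGHD1-1, IGHJ2 and YYGS came together in 2 of 94 clonotypes of the iB library (2.13%, 0.259 to 7.48), with 448 and 131 reads. In the B6 library 1 of 32 had it (3.13%, 0.0791 to 16.2), with 8 reads. All 3 are among the printed sequences, and each listed IGHV1-62-3 second, with leads of 6.6, 8.5 and 42. Over all V genes, IGHD1-1, IGHJ2 and YYGS came together in 3.04% and 3.27% of clonotypes, inside the intervals of the IGHV1-72 shares. IGHV1-62-3 carried the combination in 6 of 69 clonotypes of the iB library and 9 of 201 of the B6 library, and IGHV1-53 carried it in 3 of 84 and 4 of 127.

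The YYGS motif with any D and J gene was present in 9 of 94 IGHV1-72 clonotypes (9.57%, 4.47 to 17.4) and in 2 of 32 (6.25%, 0.766 to 20.8). In IGHV1-53 it was present in 11 of 84 (13.1%, 6.72 to 22.2) and 14 of 127 (11%, 6.16 to 17.8). The differences were 3.32 points (-11.3 to 12.2) for IGHV1-72 and 2.07 points (-6.62 to 11.9) for IGHV1-53. The whole repertoires held it in 10.1% and 11.7% of clonotypes. Nearly all of the motif came with IGHD1-1, in 8 of 9 and 2 of 2 IGHV1-72 clonotypes and in 11 of 11 and 12 of 14 IGHV1-53 clonotypes.

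Of IGHV1-53 clonotypes, 18 of 84 (21.4%, 13.2 to 31.7) carried IGHD1-1 in the iB library and 43 of 127 (33.9%, 25.7 to 42.8) in the B6 library. The difference of -12.4 points (-23.8 to 0.0971) had an interval that just included 0, and the shares over all IgH clonotypes were 19.4% and 29.9%. In 5 of 12 alternatives with an interval it lay below 0, for example -17.7 points (-32.6 to -1.04) with at least 8 nucleotides of D and -13.7 points (-25.2 to -1.00) with near-identical clonotypes merged. The IGHD1-1 clonotypes of IGHV1-53 read YYGS in 11 of 18 in the iB library (61.1%, 35.7 to 82.7) and in 12 of 43 in the B6 library (27.9%, 15.3 to 43.7). Over all V genes these shares were 50.9% and 37.7%. For IGHV1-72 they were 8 of 19 and 2 of 9.

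IGHD4-1 was assigned to IGHV1-72 in 16 of 94 (17.0%) and 5 of 32 (15.6%). In IGHV1-53 it was assigned in 9 of 84 (10.7%) and 8 of 127 (6.30%), where all IgH clonotypes had 16.3% and 8.57%. IGHD2-3 was assigned in 13 of 94 and 6 of 32 IGHV1-72 clonotypes and in 11 of 84 and 13 of 127 IGHV1-53 clonotypes. IGHD2-4 was assigned in 9 and 2 of IGHV1-72 and in 11 and 12 of IGHV1-53. The numbers for IGHD2-5 were 7 and 3, then 8 and 7. IGHD2-7 was assigned in 4 and 1, then 4 and 9. IGHD2-8 was assigned in 7 and 0 of IGHV1-72, and in 5 and 6 of IGHV1-53. IGHD5-7 was assigned in 0 and 2, then 1 and 1. No D gene was assigned in 10 and 3 IGHV1-72 clonotypes and in 14 and 17 IGHV1-53 clonotypes.

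IGHJ4 and IGHJ2 were the most used J genes of IGHV1-72 in both mice. IGHJ4 was joined in 30 and 10 clonotypes, IGHJ3 in 19 and 5, and IGHJ1 in 16 and 5. IGHV1-53 was joined most often to IGHJ2 in the iB library (29 of 84, 34.5%) and to IGHJ3 in the B6 library (42 of 127, 33.1%). Its IGHJ2 share in the B6 library was 38 of 127 (29.9%), a difference of 4.60 points (-7.96 to 17.5), and its IGHJ3 difference was -3.31 points (-15.5 to 9.63). IGHJ1 was joined in 8 and 24 clonotypes (-9.37 points, -18.3 to 0.669) and IGHJ4 in 22 and 23 (8.08 points, -3.11 to 19.9). Each of these intervals included 0.

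**Figure D4:**
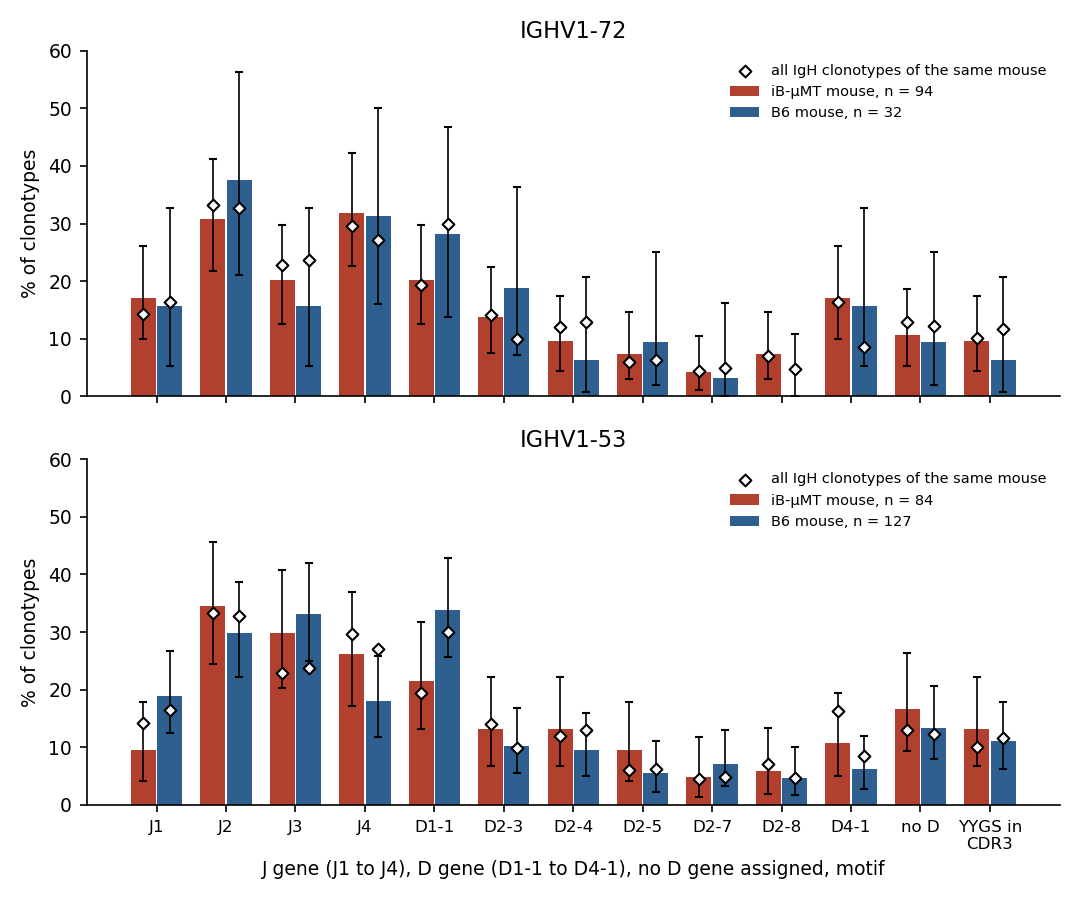
Share of IGHV1-72 (top) and IGHV1-53 (bottom) clonotypes (vertical, %) with each J gene, D gene, no D gene, or YYGS in CDR3, in the iB library (red) and the B6 library (blue), as bars with exact 95% intervals over clonotypes, and diamonds for all IgH clonotypes of the same mouse. The intervals of the 2 mice overlap for every item, and the IGHD1-1 bar is lower in the iB library for both genes (20.2% and 28.1% for IGHV1-72, 21.4% and 33.9% for IGHV1-53).

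The junctions of IGHV1-53 held fewer inserted nucleotides in the iB library, as did those of the whole repertoire. Nucleotides assigned to neither V, D nor J numbered 4.74 (SD 3.43 over 70 clonotypes whose D was assigned) in the iB library and 6.95 (SD 4.99 over 110) in the B6 library, a difference of -2.21 (-3.44 to -0.981). Both joins contributed, with means of 3.49 and 4.50 between V and D and of 1.26 and 2.45 between D and J. No inserted nucleotide was found in 5 of 70 (7.14%, 2.36 to 15.9) and 2 of 110 (1.82%, 0.221 to 6.41). Over all IgH clonotypes the means were 4.32 and 6.36, a difference of -2.04 (-2.17 to -1.92), and over the other IGHV1 genes the difference was -2.14 (-2.33 to -1.94), so IGHV1-53 did not stand apart in size.

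For IGHV1-72 the difference was smaller and its interval included 0. The means were 4.48 (SD 2.83 over 84) and 5.24 (SD 2.80 over 29), a difference of -0.765 (-1.95 to 0.420). For the pair with IGHV1-62-3 it was -2.32 (-2.99 to -1.64), and for IGHV1-62-3 alone it was -2.91 (-3.81 to -2.01). The means between V and D were 3.38 and 3.83, with 1.10 and 1.41 at the join of D to J. No insertion was found in 4 of 84 (4.76%, 1.31 to 11.7) and in 0 of 29 (up to 11.9%).

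CDR3 length differed little. IGHV1-72 clonotypes had a mean of 13.9 amino acids (SD 2.28) in the iB library, with a range from 9 to 18, and of 13.8 (SD 2.42) in the B6 library, with a range from 9 to 20. The difference was 0.0811 (-0.874 to 1.04). It was -0.889 (-2.93 to 1.15) with at least 20 reads, where 9 clonotypes of the B6 library were left. IGHV1-53 clonotypes had means of 13.3 (SD 2.71, 7 to 18) and 13.9 (SD 2.94, 7 to 21), a difference of -0.588 (-1.36 to 0.185). The stretch assigned to the D gene had means of 10.3 and 10.03 nucleotides in IGHV1-72 and of 11.5 and 11.1 in IGHV1-53.

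**Figure D5:**
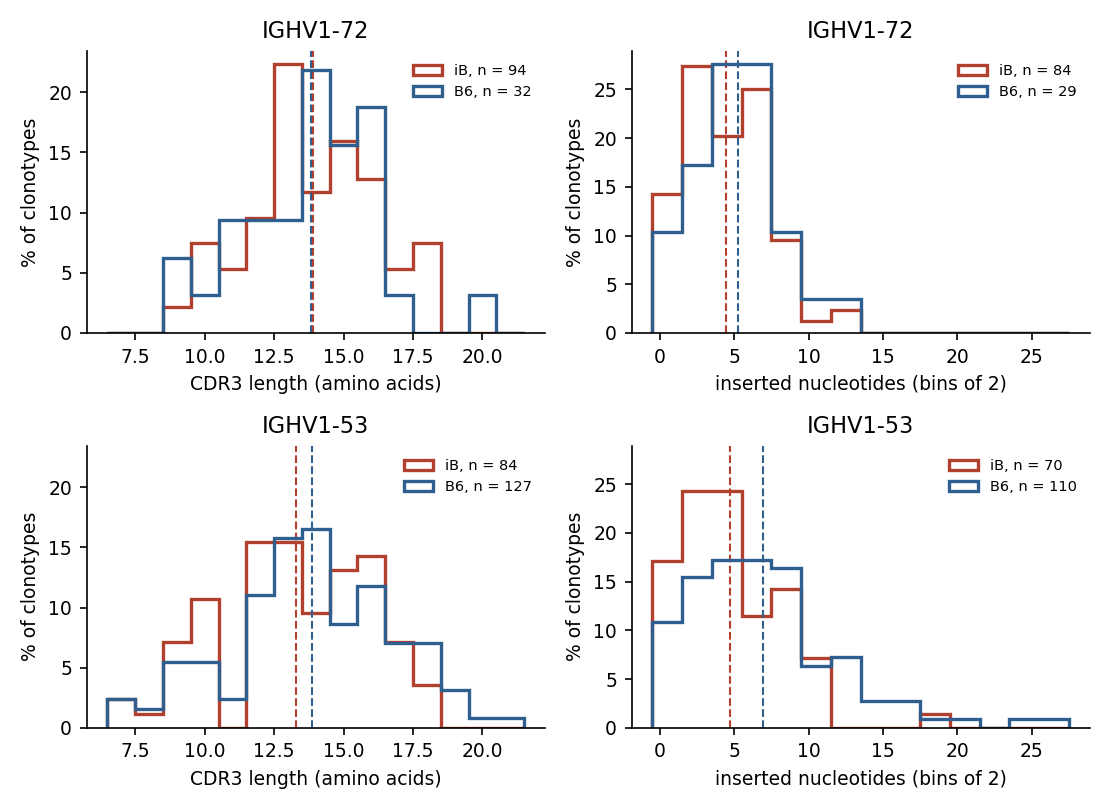
CDR3 length in amino acids (left) and nucleotides inserted at the joins in bins of 2 (right) for IGHV1-72 (top) and IGHV1-53 (bottom), as % of clonotypes in the iB library (red) and the B6 library (blue), with dashed lines at the means. The means of inserted nucleotides are 4.74 and 6.95 for IGHV1-53 and 4.48 and 5.24 for IGHV1-72, while those of CDR3 length lie within 1 amino acid of each other.

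Cysteine, alanine and arginine, the residues encoded by the untrimmed V end, opened CDR3 in 82 of 94 and 26 of 32 IGHV1-72 clonotypes (87.2% and 81.3%) and in 70 of 84 and 106 of 127 IGHV1-53 clonotypes (83.3% and 83.5%). The V end was untrimmed in 81 of 94 and 25 of 32, and in 69 of 84 and 99 of 127. A mismatch to the V gene within CDR3 was found in 1 of 94 and 1 of 32 IGHV1-72 clonotypes and in 0 of 84 (up to 4.30%) and 0 of 127 (up to 2.86%) IGHV1-53 clonotypes. The constant gene was IGHM in all 94 and all 32 IGHV1-72 clonotypes. IGHV1-53 carried IGHM in 80 of 81 and 124 of 124 clonotypes with an assigned constant gene, and the remaining 1, in the iB library, carried IGHG2C.

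Few clonotypes of the members recurred in the other mouse, as was so over all IgH clonotypes. With the same V and J gene, 0 of 94 and 0 of 32 IGHV1-72 clonotypes and 1 of 84 and 1 of 127 IGHV1-53 clonotypes were found in both tables. That clonotype had 1 read in the iB library and 2 in the B6 library, with IGHV1-53 and IGHV1-72 tied. Among all IgH clonotypes, 34 were shared (0.436% and 0.501%). The other shared CDR3 sequences printed above carried a different V gene in each mouse. How often this held over all IgH clonotypes was not counted. One without an assigned D gene was called IGHV1-53 with 86 reads in the iB library and IGHV1-72 with 138 reads in the B6 library. A single-read IGHV1-72 clonotype of the iB library, with a lead of 42, had the CDR3 of an IGHV1-62-3 clonotype with 322 reads in the B6 library.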

How the data were processed

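Sorted-cell RNA was amplified from its 5′ ends and sequenced as 2 IgH libraries, 1 per group, and the light chain tables were not used here. The authors assembled clonotypes with MiXCR (the labels name mm10) and deposited, per clonotype, a raw read count, its fraction of library reads, gene hits with an alignment score, and a quality score. All clonotypes in the tables were used, with Python 3.11.15, SciPy 1.17.1, NumPy 2.4.6 and pandas 2.3.3. Ratios have log-normal intervals, differences of shares Newcombe intervals and means normal intervals, and read shares were linearised over clonotypes. The ratio step was tested on simulated data. With 1 library per group no p-value was computed.

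All 105 IGHV names matched RefSeq's gene table. Named genes were the members, the 3 V genes nearest to each, V genes listed beside them, all J genes, and D genes with at least 5% of a member. Members and lists were chosen with earlier results of these data known. Alternatives were minimums of 2 or 5 reads, thinning to equal depth, merging of near-identical clonotypes, productive clonotypes, untied V hits, leaving out shared clonotypes, read weighting, at least 8 nucleotides of D, and 10 or 50 clonotypes per V gene. A minimum of 20 reads, merging across V and J genes, leads of at least 14 and 28, and counting with IGHV1-62-3 were chosen after seeing the data.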

Additional observations from a re-analysis of the deposited data

How the results depend on the processing

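All 83 recomputed values for IGHV1-53 kept their direction and lay inside the interval of the value as deposited, although the interval of its IGHD1-1 difference lay below 0 in 5 of 12. For IGHV1-72, 77 of 90 lay inside that interval, and 18 of 90 were on the other side of no difference, most of them for values whose interval included 0 as deposited. The IGHV1-72 ratio of clonotype shares, 2.56, was 4.06 with at least 5 reads and 7.56 with at least 20. With a lead of at least 28 it was 0.935 (0.511 to 1.71), an interval that included 1. Counted with IGHV1-62-3, the pair had a ratio in the other direction, 0.609 (0.50 to 0.742). The ratio of read shares, 9.72, was 21.7 with a lead of at least 28. For the pair it was 0.651, again in the other direction. The IGHD1-1 difference, -7.91 points, was -30.4 weighted by reads and 21.4 with a lead of at least 28. The IGHJ2 difference, -6.65 points, was 27.7 weighted by reads, 22.2 with at least 20 reads and -32.3 with a lead of at least 28. Inserted nucleotides, -0.765, differed by -2.32 with IGHV1-62-3, and CDR3 length, 0.0811, by -0.889 with at least 20 reads. Minimums of reads and leads leave fewer clonotypes and the joint count adds those of IGHV1-62-3, while read weighting keeps all clonotypes. The cause was not tested. The number of V genes past 2-fold was 30 of 77. It ranged from 26 of 66 with at least 50 clonotypes per V gene to 39 of 89 with at least 10, so the number of genes compared changed too. No paired analysis was possible because each group was 1 library. The B6 mouse had the deeper library, and the number of its IGHV1-72 clonotypes, 32 in all and 9 with at least 20 reads, limits these values. Single mice leave variation between animals unmeasured.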
